A study of Mus musculus with 22 samples.

Results

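The macrophage genes examined here were those of Csf1r, C1qa, C1qb, C1qc, Cd68, Mrc1, Ptprc, Tyrobp, Cd163 and Spi1 that the count tables list. Of these 10 genes, 9 were among the 998 genes of the tables, and Spi1 was not a row of any table. They were followed in 22 tissue sections of mouse embryos at E10, imaged with CosMx, which reads single RNA molecules by repeated rounds of fluorescent hybridization in a section and assigns each to a segmented cell. By the labels, 13 sections came from the knockout embryo (Nr4a1-/-Nr4a2-/-, without functional alleles of 2 related nuclear receptor genes) and 9 from the wild-type embryo (Nr4a1+/+Nr4a2+/+). Both alleles were carried in the germline and were backcrossed to C57BL/6J, the sections were 10 µm thick, and the study compared blood stem cell emergence around the dorsal aorta. Since each genotype is 1 embryo, a p-value over sections speaks of the difference between 2 embryos against the spread of their sections. By the study's methods each slide held sections of a single genotype, so embryo and slide cannot be told apart. The legend of the study's spatial figure gives more wild-type sections than the labels do and fewer knockout ones, so each direction between the embryos below rests on the labels alone.

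Macrophages of the early embryo arise first from yolk sac progenitors, before blood stem cells exist, and spread through the tissues to clear dying cells. They depend on the receptor Csf1r, which binds the growth factors Csf1 and Il34, and on the transcription factor PU.1, the product of Spi1. C1qa, C1qb and C1qc encode the chains of C1q, which binds dying cells and immune complexes and starts the classical complement pathway; Cd68 is a protein of their lysosomes, and Mrc1 and Cd163 are scavenger receptors of their surface. Ptprc (CD45) is a phosphatase of all white blood cells, and Tyrobp (DAP12) is an adaptor that signals for activating receptors of myeloid and natural killer cells.

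Of 37575 segmented cells, 37570 passed a minimum of 10 transcripts and 10 genes. A section held between 169027 and 887896 transcripts, and the median cell of a section held between 87 and 332. Cell names were shared by 3409 pairs of cells of different sections, and in none of these pairs were the counts identical. The targeted genes did not pass the test between the embryos, so the knockout sections are named by their label: Nr4a1 had a log2 fold change (knockout over wild type) of -0.05, with an adjusted p of 0.716 by edgeR (quasi-likelihood, Benjamini-Hochberg), and Nr4a2 one of 0.03, with an adjusted p of 0.860. Over all cells, 2800 were gated as erythroid (at least 10 hemoglobin transcripts that make up at least 5% of the cell). Among the other cells, 3195 were gated as endothelial (at least 3 of Cdh5, Pecam1, Tie1, Esam, Clec14a and Kdr). In a section, a lower number of macrophages and less RNA per macrophage cannot be told apart.

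The macrophage genes were dim. Summed over all 22 sections, their levels ran from 3.63 transcripts per 10000 for Ptprc and 3.66 for C1qc to 7.41 for C1qb and 7.72 for Tyrobp. The median of the 9 genes was 4.98, beside 5.76 for the 998 genes of the panel, and 7 of the 9 lay below the panel's median. A list of 17 genes of adult secretory, fat and plasma cells (Igkc, Jchain, Adipoq, Prss2 and the like), which an embryo at E10 should lack, had a median of 4.86 per 10000 and ran from 2.93 to 7.40. Of the macrophage genes, 7 lay within that range, and C1qb (7.41) and Tyrobp (7.72) lay just above it. Probes differ between genes, so these levels do not rank the genes by abundance.

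Between 6.79% of cells (C1qc) and 13.7% (Tyrobp) held at least 1 transcript of a given macrophage gene. Most of these cells held no more than that: the share of positive cells with a single transcript ran from 62.7% for C1qb to 80.2% for Mrc1. The highest count in any cell was 14 for Mrc1, 9 for C1qa and for C1qc, and between 5 and 8 for the others. Cells with at least 3 transcripts of a gene were more frequent than a Poisson law at each cell's total gives for every macrophage gene, by between 3.33-fold (Tyrobp) and 8.68-fold (C1qc), but the median gene of the panel also exceeded that law, by 3.74-fold. C1qc stood high on this measure, with 1.70% of the panel's genes at or above it, while Tyrobp (60.02%) and C1qb (45.2%) lay in the middle.

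**Figure D1:**
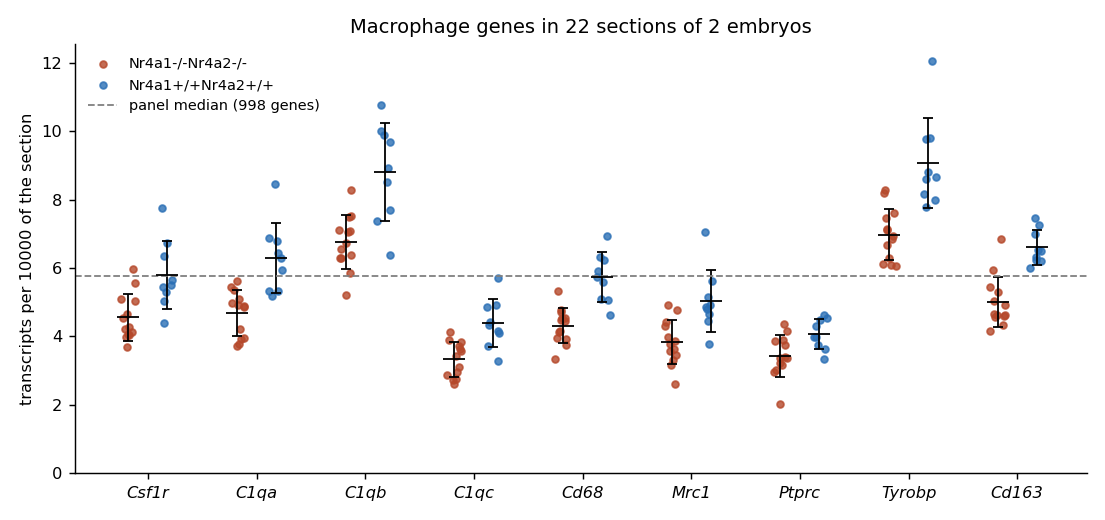
Transcripts of each macrophage gene per 10000 transcripts of a section, 1 point per section, for the 13 knockout (red) and 9 wild-type (blue) sections; bars give the mean and SD, and the dashed line is the median of the 998 genes (5.76). The ranges of the embryos overlap for all 9 genes, with lower means in the knockout sections.

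The number of cells positive for both genes of a pair was set beside the number expected if each gene fell on cells in proportion to their total count within a section. Over all 497503 pairs of panel genes the median ratio of observed to expected cells was 1.02, and 1.24% of pairs reached 1.2. Of the 36 pairs of macrophage genes, 3 reached 1.2, and these were the 3 pairs among the C1q genes. In the knockout sections alone 5 pairs reached it, beside 2.36% of all pairs, and in the wild-type sections alone 2, beside 1.18%. The median of the 36 pairs was 1.05.

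The ratio moved with the position of the genes in the genome. RefSeq (GRCm38.p6) placed 969 of the 998 genes by symbol or synonym, and pairs were split by chromosome after the data were seen. Outside the macrophage genes, the 26725 pairs on the same chromosome had a median ratio of 1.12 and 20.1% reached 1.2, whereas the 442235 pairs on different chromosomes had a median of 1.02 and 0.107% reached it. Same-chromosome pairs made up 91.9% of the pairs at or above 1.2. Among the 1220 pairs that lay within 1 Mb of each other the median was 1.24 and 63.3% reached 1.2. The 3 C1q pairs are pairs of this kind, and the other 33 pairs of macrophage genes lie on different chromosomes. Of these 33 pairs 0 reached 1.2 over all sections, and their median was 1.04. In the knockout sections alone 2 of the 33 reached it, beside 0.924% of the panel's pairs on different chromosomes. In the wild-type sections alone 0 did, beside 0.233%.

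Genes of another cell type gave higher ratios without a shared chromosome. The 15 pairs of the 6 endothelial gate genes, all on different chromosomes, had a median of 1.23, with 10 at or above 1.2. Among the 56 other mononuclear phagocyte genes, 0 of 1457 pairs on different chromosomes reached 1.2 (median 1.04), beside 43 of 83 on the same chromosome (median 1.204). Among the adult secretory, fat and plasma cell genes, 0 of 86 pairs on different chromosomes reached 1.2 (median 1.06).

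C1qa and C1qb were found together in 1063 cells where 777 were expected (ratio 1.37). This ratio was reached by 5.08% of the pairs within 1 Mb and by 0.0261% of all other pairs of the panel. Within the embryos the share of close pairs that reached it was 1.80% in the knockout sections (ratio 1.48) and 29.4% in the wild-type sections (ratio 1.27). The ratio lay above 1 in all 22 sections. In the knockout sections its lowest value was 1.28, its median 1.47 and its highest 1.76, and in the wild-type sections these were 1.13, 1.28 and 1.48, so that the ranges overlapped. C1qa and C1qc shared 568 cells against 427 expected (ratio 1.33, reached by 12.4% of pairs within 1 Mb), with an excess in 12 of 13 knockout and 8 of 9 wild-type sections. C1qb and C1qc shared 679 cells against 549 expected (ratio 1.24, reached by 50.2% of pairs within 1 Mb), with an excess in 11 of 13 and 8 of 9 sections. For C1qa with C1qc the shares of close pairs were 18.8% in the knockout and 12.5% in the wild-type sections, and for C1qb with C1qc 29.6% and 65.4%. The 3 C1q genes were thus found together beyond their totals in both embryos, while their standing among close pairs differed with the pair and the embryo. The part of the shared chromosome in the C1q ratios was not tested.

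The C1q genes are direct neighbours on chromosome 4, with no protein-coding gene between C1qb and C1qc or between C1qc and C1qa in RefSeq. Promoter sequences in RefSeq (GRCm38.p6, 250 bases before to 50 after the start of transcription) were found for 6 of the 9 genes, namely C1qb, C1qc, Cd68, Cd163, Mrc1 and Ptprc. Those of C1qb and C1qc are shown as the C1q genes with an entry, with that of Mrc1, the gene most raised per cell in cells rich in C1q. Capitals mark GAGGAA on either strand (TTCCTC on the other), the core that PU.1 binds. C1qb lies at chr4:136886151-136886450 and C1qc at chr4:136892865-136893164, both on the minus strand, and Mrc1 at chr2:14229164-14229463 on the plus strand.
C1qb: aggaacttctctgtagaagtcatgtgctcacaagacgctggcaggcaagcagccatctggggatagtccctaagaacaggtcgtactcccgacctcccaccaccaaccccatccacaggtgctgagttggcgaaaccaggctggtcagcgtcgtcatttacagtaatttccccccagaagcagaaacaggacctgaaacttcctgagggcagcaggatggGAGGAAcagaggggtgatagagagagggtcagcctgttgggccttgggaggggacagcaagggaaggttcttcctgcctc
C1qc: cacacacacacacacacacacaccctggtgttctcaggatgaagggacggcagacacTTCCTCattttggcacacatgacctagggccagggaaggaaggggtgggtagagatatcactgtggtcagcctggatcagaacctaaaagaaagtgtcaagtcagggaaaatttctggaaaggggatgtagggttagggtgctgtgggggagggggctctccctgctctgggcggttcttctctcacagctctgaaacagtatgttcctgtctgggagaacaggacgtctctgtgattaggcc
Mrc1: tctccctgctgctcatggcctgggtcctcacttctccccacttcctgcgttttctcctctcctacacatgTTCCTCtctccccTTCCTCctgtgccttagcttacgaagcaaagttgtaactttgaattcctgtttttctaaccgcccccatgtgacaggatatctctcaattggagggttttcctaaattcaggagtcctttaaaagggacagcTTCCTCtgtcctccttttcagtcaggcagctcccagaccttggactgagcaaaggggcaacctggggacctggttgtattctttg
The motif occurred 1 time for C1qb, 1 time for C1qc and 3 times for Mrc1. Of the 7 promoters of the 6 genes, 5 held it, among them that of Cd68 (2 times) and 1 of the 2 promoters of Ptprc, while that of Cd163 and the other one of Ptprc did not. It is common: 28.3% of the 32851 promoters of the same length held at least 1 match, and 0.685% held at least 3. A match is a description of these letters and not a binding site.

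Csf1r, the growth factor receptor, came next. It shared 513 cells with C1qc where 433 were expected (ratio 1.19, reached by 0.196% of pairs on different chromosomes), 910 with C1qb (ratio 1.16, 0.691%) and 668 with the lysosomal gene Cd68 (ratio 1.15, 1.15%). These ratios were above 1 in 16, 18 and 18 of the 22 sections. With C1qa the ratio of Csf1r was 1.08, which 12.5% of pairs on different chromosomes reached. The median ratio of Csf1r with all 997 other genes was 1.08 and with the adult secretory, fat and plasma cell list 1.10, so Csf1r transcripts lay beside most genes a little more often than their totals gave. With cells compared within 20 bins of total count the ratios of Csf1r fell to 1.13 with C1qc, 1.10 with C1qb, 1.07 with Cd68 and 1.01 with C1qa, where the median of pairs on different chromosomes was 1.01.

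The adaptor Tyrobp shared 968 cells with C1qa against 840 expected (ratio 1.15, reached by 0.878% of pairs on different chromosomes) and 863 with Mrc1 against 774 (ratio 1.12, 4.07%). Within 20 bins of total count these were 1.11 and 1.08. Its ratios with C1qc (1.02) and Ptprc (1.01) were near the panel's median. Mrc1 had ratios between 1.00 and 1.12 with the other 8 genes. Ptprc had ratios between 0.98 and 1.07, and Cd163 between 0.97 and 1.07. For Cd163 and Ptprc, co-detection at 1 transcript therefore did not stand apart from that of the panel.

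**Figure D2:**
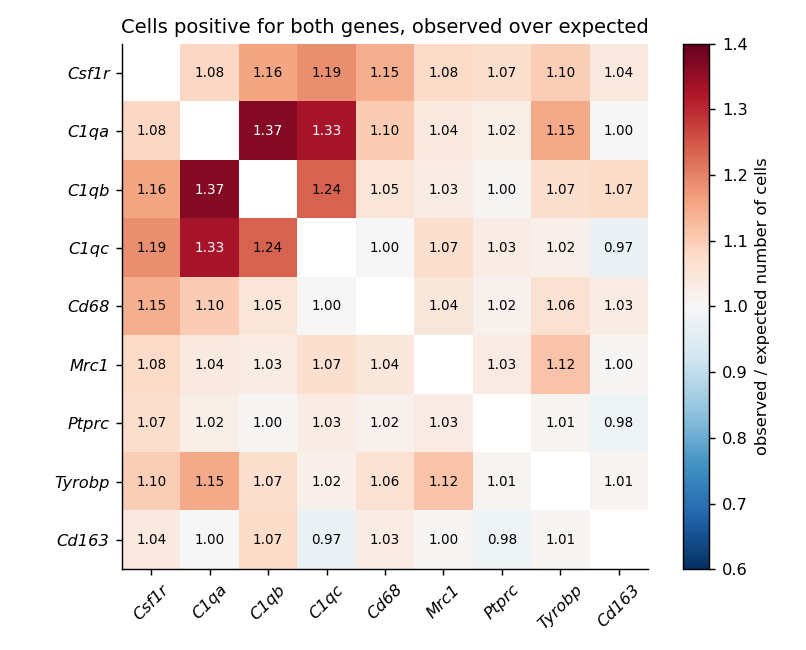
Observed over expected number of cells positive for both genes, for the 36 pairs of the 9 macrophage genes over 22 sections; red is above and blue below expectation. The C1q block, the only pairs on a shared chromosome, holds the 3 highest values (1.24 to 1.37), Csf1r has a band up to 1.19, and the rows of Cd163 and Ptprc stay between 0.97 and 1.07.

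**Figure D3:**
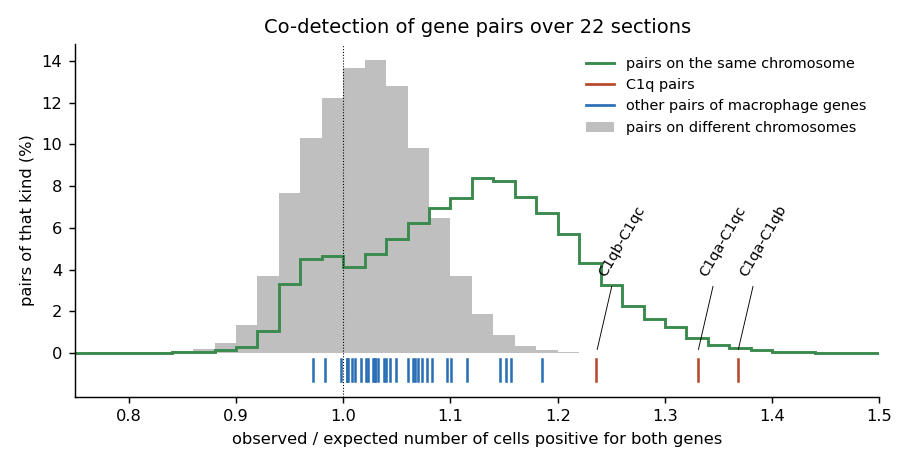
Distribution of the same ratio over pairs of other panel genes on different chromosomes (grey bars) and on the same chromosome (green line), each in percent of its pairs, with the 36 pairs of macrophage genes as ticks below the axis. Same-chromosome pairs lie higher (median 1.12 against 1.02), the C1q pairs (red) lie among their upper part, and the other pairs of macrophage genes (blue) lie within the range of the grey bars.

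The genes outside the set that were most often found with each member were named by rule, the 3 with the highest ratio, and all 27 of these entries lay on the same chromosome as their member. For C1qa they were Fgr (1.35), a kinase of myeloid cells, Cd52 (1.33), a surface glycoprotein of leukocytes, and Il22ra1 (1.32), a receptor of epithelia. For C1qb they were Fgr (1.28), Runx3 (1.27), a transcription factor of leukocytes and sensory neurons, and Il22ra1 (1.26). For C1qc they were Cd52 (1.303), Runx3 (1.28) and Tnfrsf4 (1.26), a receptor of T cells.

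For Csf1r the nearest genes were Cd74 (1.38), the invariant chain of antigen presentation, Camk2a (1.35), a kinase of neurons, and Il17b (1.35). For Tyrobp they were Hcst (1.44), Ffar3 (1.41) and Cxcl17 (1.33), where Hcst encodes the related adaptor DAP10 and is the direct neighbour of Tyrobp on chromosome 7. Cd68 had Cxcl16 (1.304), a chemokine and scavenger receptor of macrophages, Clec10a (1.28), a lectin of macrophages and dendritic cells, and Ccr7 (1.27). Mrc1 had Il2ra (1.29), Ptgs1 (1.26) and Il36g (1.22), Ptprc had Ptgs2 (1.29), Rgs2 (1.29) and Bcl2 (1.26), and Cd163 had Clec4a1 (1.32), Mfap5 (1.28) and Clec4e (1.28). Of the 27 entries, 6 came from the list of other mononuclear phagocyte genes, which holds 56 of the 998 genes of the panel. Among these 6, Fgr (for C1qa and C1qb) and Cd52 (for C1qa and C1qc) were each counted 2 times. With genes on other chromosomes, C1qb, Ptprc, Tyrobp and Cd163 had 0 ratios at or above 1.2, C1qa, C1qc and Cd68 1 each, Mrc1 2 and Csf1r 7.

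Cells positive for several macrophage genes were only slightly more frequent than expected. At least 3 of the 9 genes were found in 3969 cells where 3704 were expected, a ratio of 1.07, with an excess in 13 of 13 knockout and 8 of 9 wild-type sections. The excess grew with the number of genes: the ratio was 1.00 for at least 2 genes, 1.13 for at least 4 and 1.24 for at least 5 (473 cells against 382). These counts include the 3 C1q genes, which share a chromosome. The share of cells with at least 3 genes was lowest at 4.85%, median 8.98% and highest at 13.9% in the knockout sections, and 9.47%, 13.1% and 17.2% in the wild-type sections, and the ranges overlapped. Expected shares had means of 8.31% and 12.3% in the same sections, beside observed means of 9.04% ± 2.87 (SD, n = 13) and 12.9% ± 2.38 (SD, n = 9). When every cell was thinned to 100 transcripts, which leaves 14251 knockout and 11312 wild-type cells, the shares were 0.637% ± 0.232 and 1.17% ± 0.313, and still overlapped. No p is given for this share, which is a score over the chosen genes.

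Some other phagocyte genes were higher in the cells with at least 3 macrophage genes than in all other cells of the same sections, though most did not pass the test. In edgeR's quasi-likelihood test with the section as a block, 93 of 989 other genes were higher (9.4%) and 135 lower (13.7%) at an adjusted p under 0.05. Of the 56 other mononuclear phagocyte genes, 12 were higher (21.4%) and 1 lower, with a median log2 fold change of 0.09 beside 0.01 for all genes tested. Those that rose most were Fgr (log2 fold change 0.30, standard error 0.05, adjusted p = 4.44e-06), Cd52 (0.26, adjusted p = 0.000425), Il10ra (0.23), a receptor for interleukin 10, the cytoskeletal marker Aif1 (0.20), the small GTPase Rac2 (0.19) and the Fc receptor chain Fcer1g (0.17). Psap, a lysosomal gene of most cells, fell by 0.20. All these changes were small, and they too moved with position: 13.4% of the 424 genes on a chromosome that carries a macrophage gene were higher, beside 6.16% of the 536 genes on other chromosomes. Of the phagocyte genes, 9 of 29 and 3 of 27 were higher in the same order, and the 3 were Il10ra, Aif1 and Rac2.

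Among all genes tested, the 10 largest rises were those of Csf2rb (0.36), Itgal (0.31), Cxcl16 (0.30), Fgr (0.30), Mpo (0.28), Runx3 (0.28), Csf3 (0.27), Cd52 (0.26), Il22ra1 (0.26) and Vwa1 (0.26), of which 9 lie on a chromosome with a macrophage gene and 5 on that of C1q. Csf2rb, a receptor chain for myeloid growth factors, Itgal, an integrin of leukocytes, and Mpo, an enzyme of granulocyte precursors, are genes of blood cells, while Il22ra1 and the matrix gene Vwa1 are not. The 5 largest falls were those of Sox2 (-0.91), a factor of neural progenitors, and of the broadly expressed genes Stmn1 (-0.46), Eno1/b (-0.45), Hsp90ab1 (-0.43) and Calm2 (-0.41). Of the other fixed lists, the granulocyte list had 2 of 9 genes higher, the lymphoid list 1 of 6, the endothelial gate genes 1 of 6, the erythroid list 1 of 3, the adult secretory, fat and plasma cell list 1 of 17, and the mast cell and smooth muscle lists 0 of 4 each. The cells compared differed in depth, with a median of 540 transcripts against 171. Against cells above the median total of their section only, 60 genes were higher, of them 7 of the 56 phagocyte genes, and without endothelial- and erythroid-gated cells 41 were higher, of them 6 of the 56. In that fit Cd52 (0.19, adjusted p = 0.0899), Csf2rb (0.18, adjusted p = 0.225) and Csf3 (0.21, adjusted p = 0.128) no longer passed, and Il22ra1 and Vwa1 did not pass in cells with at least 4 macrophage genes. With library sizes in place of TMM factors, which raise the median gene to 0.11, 416 were higher.

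Cells rich in C1q held more of some other macrophage genes, above all Mrc1, than cells of like depth. A sum of C1qa, C1qb and C1qc of at least 6 transcripts, a limit chosen after the data were seen, was reached by 130 cells, and at least 1 such cell was present in each of the 22 sections. A Poisson law at each cell's total would give 14.1 such cells, a comparison that also counts the excess seen for single genes of the whole panel. Their median total was 672 transcripts, beside 202 for other cells, so their other genes were set beside cells of the same section and the same twentieth of total count. The limit was chosen on these cells, so the comparison is a description with no test.

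Mrc1 ranked first of 995 other genes in these cells, with 114 transcripts against 37.3 in matched cells (3.06-fold). It was higher in 18 of 22 sections, and 42 of the 130 cells held it. Csf1r had 73 transcripts against 44.7 (1.63-fold, 14 sections) and Tyrobp 105 against 69.5 (1.51-fold, 13 sections). Cd68 (1.202-fold) and Ptprc (1.19-fold) were closer to matched cells, and Cd163 lay below them (40 transcripts against 47.3, 0.846-fold). Of the 6 macrophage genes outside C1q, 3 were thus at least 1.5-fold higher, beside 3.52% of all 995 genes.

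Of the 56 other phagocyte genes, 7 were at least 1.5-fold higher and the median was 1.17, beside 1.03 for all genes and 0.964 for the 17 adult secretory, fat and plasma cell genes, of which 0 reached 1.5. The 7 were the fractalkine receptor Cx3cr1 (103 transcripts against 49.3, 2.09-fold), Cd52 (2.08-fold), the transcription factor Maf (1.82-fold), the lipid carrier Apoe (1.71-fold), Fcer1g (1.603-fold), the growth factor receptor chain Csf2ra (1.58-fold) and Aif1 (1.58-fold). Cx3cr1 and Cd52 ranked directly after Mrc1 among all genes. The 44 genes on the chromosome of C1q had a median of 1.24 in these cells, beside 1.03 for the 922 genes on other chromosomes. Of the 7 phagocyte genes Cd52 lies on the chromosome of C1q and the other 6 do not, nor do Mrc1, Csf1r and Tyrobp. On other chromosomes 6 of 52 phagocyte genes were at least 1.5-fold higher, beside 3.04% of all genes there. Genes outside the list were also raised, such as the interleukin 4 receptor Il4ra (1.88-fold), Runx3 (1.75-fold) and the metallothionein Mt2 (1.67-fold). Endothelial-gated cells made up 26.9% of the C1q-rich cells and 26.2% of matched cells, and erythroid-gated cells 21.5% and 13.99%. The part of erythroid-gated cells in these values was not tested.

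The ratios of Mrc1, Csf1r, Ptprc, Tyrobp and Cd68 were larger at higher limits on C1q, while that of Cd163 fell. Cd68 rose least, from 1.13-fold with at least 4 C1q transcripts to 1.41-fold with at least 8. In the 790 cells with at least 4, Mrc1 was 1.46-fold and Csf1r 1.25-fold above matched cells, with 0.302% of all genes at or above 1.5. In the 29 cells with at least 8, which came from 15 sections, Mrc1 was 5.63-fold (55 transcripts against 9.77), Ptprc 2.78-fold, Csf1r 2.31-fold and Tyrobp 2.09-fold higher, where 13.7% of 982 genes reached 1.5. Cd163 had 4 transcripts there against 11.7 in matched cells. Of the 55 Mrc1 transcripts, 36 lay in the 8 cells with at least 10 C1q transcripts. In the 21 cells with 8 or 9, Mrc1 was 2.68-fold (19 transcripts against 7.09), Csf1r 2.12-fold, Ptprc 2.12-fold and Tyrobp 1.46-fold above matched cells. The Ptprc value came from the knockout embryo, with 9 transcripts against 1.501, while the wild-type cells held 2 against 3.68. At a limit of 8 or more Ptprc was 5.51-fold in the knockout and 1.24-fold in the wild-type cells. In the same order Mrc1 was 11.9-fold and 2.46-fold, Csf1r 3.97-fold and 1.59-fold, and Tyrobp 2.85-fold and 1.73-fold. These differences between the embryos were not tested.

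Of the 8 cells with at least 10 C1q transcripts, 4 lay in knockout and 4 in wild-type sections, and 3 held at least 3 endothelial gate genes. A cell of knockout section 8 held 2 transcripts of C1qa, 4 of C1qb, 9 of C1qc, 5 of Csf1r, 8 of Mrc1, 4 of Ptprc and 22 of Apoe, but 0 of Tyrobp, and it held 3 endothelial gate genes. A cell of knockout section 12 held 8 of C1qb and 14 of Mrc1, the highest Mrc1 count of any cell, with 1 each of Ptprc and Tyrobp and 0 of Csf1r, Cd68 and Cd163. A cell of knockout section 6 held 9 of C1qa, 5 of Mrc1, 6 of Tyrobp and 9 of Cx3cr1, with 0 of Cd68 and Cd163 and 3 endothelial gate genes. A cell of wild-type section 19 held 5 of C1qb, 8 of Mrc1 and 3 of Ptprc, with 0 of Csf1r, Cd68, Tyrobp and Cd163 and 3 endothelial gate genes. Without these 8 cells, a setting added after the data were seen, Mrc1 still ranked first among all genes (2.26-fold) and Csf1r was 1.55-fold above matched cells, while Tyrobp (1.35-fold) was below 1.5 and Ptprc (0.929-fold) below 1. Other cells of this kind held C1q without Mrc1, such as a cell of wild-type section 16 with 7 transcripts of C1qb, 4 of C1qc and 0 of Mrc1.

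The share of C1q-rich cells was lowest at 0.175%, median 0.281% and highest at 0.646% in the knockout sections (62 of 21191 cells in all), and 0.0692%, 0.357% and 0.983% in the wild-type sections (68 of 16379). The means were 0.318% ± 0.151 (SD, n = 13) and 0.470% ± 0.293 (SD, n = 9), and the ranges overlapped. The Poisson law at each cell's total gave 4.52 such cells in the knockout and 9.59 in the wild-type sections. The ratio of observed to expected cells was therefore larger in the knockout sections, where the expected number was smaller, although their share was lower. The tables carry a number, 1 or 2, in their names. Among those numbered 1 the means were 0.378% ± 0.180 and 0.638% ± 0.331, and among those numbered 2 they were 0.247% ± 0.0683 and 0.336% ± 0.197, each in the order knockout and wild type. Mrc1 was 4.28-fold above matched cells in the C1q-rich cells of the knockout embryo and 2.22-fold in those of the wild-type embryo, and Csf1r 2.13-fold and 1.27-fold. Without the 8 cells with at least 10 C1q transcripts these were 2.63-fold and 2.00-fold for Mrc1 and 1.87-fold and 1.32-fold for Csf1r, and the difference between the embryos was not tested.

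**Figure D4:**
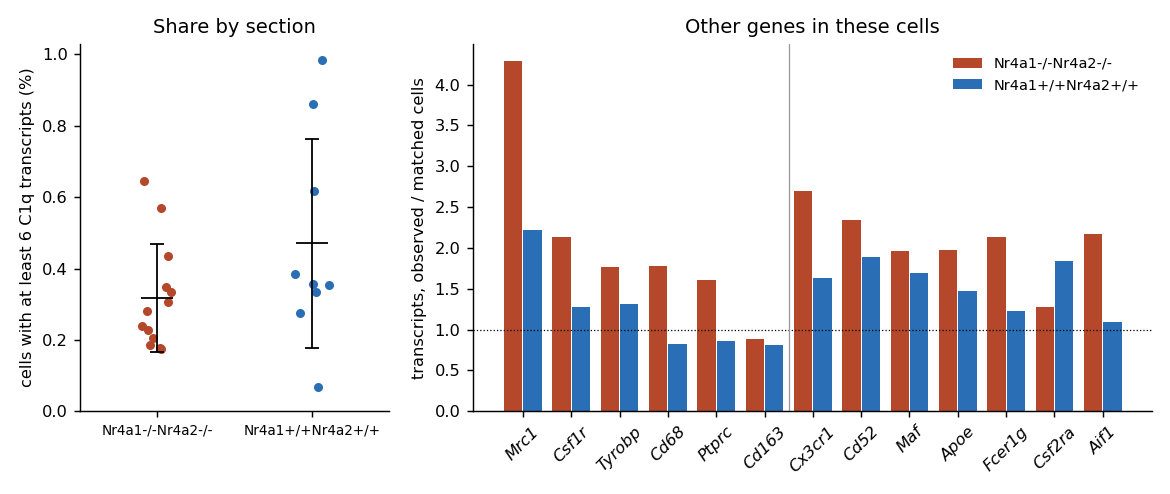
Left, percent of cells with at least 6 C1q transcripts in each section (points, with mean and SD) of the knockout (red) and wild-type (blue) embryo. Right, transcripts in these cells over those in cells of like total of the same section, for the 6 macrophage genes outside C1q and, right of the line, the 7 other phagocyte genes at or above 1.5 in both embryos together; Mrc1 is highest, and Cd163 lies below 1 in both embryos.

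Raising the number of transcripts that make a cell positive raised the ratios of Mrc1 with 5 of the other 8 genes above 1.2, a setting chosen after the data were seen, with cells compared within 20 bins of total count. At 2 transcripts of each gene, 12 of the 36 pairs reached 1.2, beside 10% of the panel's pairs. Of the 33 pairs on different chromosomes 9 did, beside 8.21% of such pairs of the panel. C1qb with C1qc had a ratio of 1.63 (130 cells against 79.5), C1qa with C1qc 1.52 and C1qa with C1qb 1.45. Pairs within 1 Mb had a median of 1.31 there, and 4.51%, 12.95% and 21.6% of them reached these ratios. Mrc1 had ratios of 1.402 with Csf1r, 1.399 with C1qc, 1.39 with Ptprc, 1.36 with Cd68 and 1.35 with C1qa, but 1.15 with C1qb, 1.07 with Tyrobp and 0.913 with Cd163. Cd163 with Ptprc reached 1.56 (53 cells against 34.1). At 3 transcripts, 22 of 35 pairs reached 1.2, beside 31.7% of the panel's pairs, and 19 of 32 pairs on different chromosomes did, beside 30.8% of such pairs. The C1q ratios at 3 transcripts were reached by between 7.74% (C1qb with C1qc) and 15.6% (C1qa with C1qc) of pairs within 1 Mb. Among pairs with at least 1 expected cell Mrc1 with C1qc had the highest ratio, 4.59, from only 8 cells against 1.74.

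Between the embryos, none of the 9 macrophage genes passed the test. C1qa, at 3.73, 4.89 and 5.62 transcripts per 10000 (lowest, median and highest of the knockout sections), stood at 5.19, 6.30 and 8.46 in the wild-type sections. C1qb stood at 5.21, 6.73 and 8.28 against 6.37, 8.93 and 10.8, and C1qc at 2.60, 3.43 and 4.11 against 3.28, 4.33 and 5.72. The knockout sections were lower in the median for each C1q gene, and the ranges overlapped.

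Csf1r stood at 3.68, 4.28 and 5.96 in the knockout and 4.40, 5.49 and 7.75 in the wild-type sections, and Mrc1 at 2.60, 3.77 and 4.92 against 3.77, 4.87 and 7.04. Cd163 stood at 4.17, 4.65 and 6.85 against 5.98, 6.48 and 7.47. The other 3 genes showed the same order with overlapping ranges. Ptprc had a mean of 3.42 ± 0.603 (SD, n = 13) and 4.06 ± 0.449 (SD, n = 9), Cd68 4.31 ± 0.514 and 5.72 ± 0.729, and Tyrobp 6.98 ± 0.754 and 9.07 ± 1.32 per 10000 transcripts.

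Scaling mattered here: the median log2 fold change of the 998 genes was -0.30 with library sizes alone and -0.03 with edgeR's TMM factors. With TMM factors, 0 of the 9 macrophage genes were called by edgeR's quasi-likelihood test at an adjusted p under 0.05, where 12.5% of all 998 genes were called. No macrophage gene had an unadjusted p under 0.05, beside 259 of the 998 genes, and DESeq2 called 0. The log2 fold changes (knockout over wild type) were -0.14 for C1qa (standard error 0.08, adjusted p = 0.242) and for C1qc (standard error 0.08, adjusted p = 0.259), and -0.11 for C1qb (adjusted p = 0.411). They were -0.13 for Cd163 (adjusted p = 0.194) and Cd68 (adjusted p = 0.252), -0.11 for Mrc1 (adjusted p = 0.456), -0.10 for Tyrobp (adjusted p = 0.343), -0.06 for Csf1r (adjusted p = 0.653) and 0.03 for Ptprc (adjusted p = 0.861). The median of the 9 was -0.11.

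With library sizes alone all 9 genes were called lower in the knockout sections, as were 72% of all 998 genes, with log2 fold changes from -0.42 to -0.24, where the panel's median was -0.30. Without knockout replicate 5, Cd163 was called (log2 fold change -0.17). Among the tables numbered 1 alone the 9 log2 fold changes ran from -0.25 to 0.12, and among those numbered 2 from -0.16 to 0.04, with 0 called in either. The ligands of Csf1r gave log2 fold changes of 0.05 for Csf1 (adjusted p = 0.722) and -0.02 for Il34 (adjusted p = 0.904). Of the 56 other phagocyte genes 0 were called, with a median of -0.07, and DESeq2 called 0. An unadjusted p under 0.05 was seen for 8 of the 56, beside 259 of all 998 genes.

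**Figure D5:**
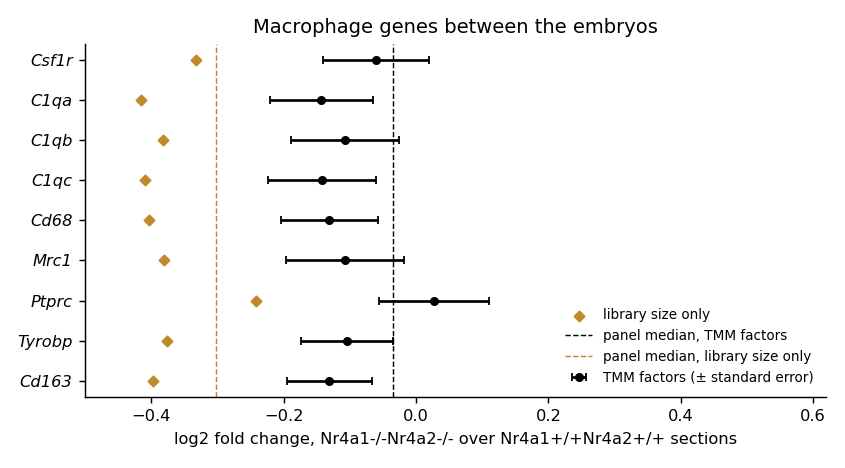
Log2 fold change of each macrophage gene between the knockout and wild-type sections with TMM factors (black points, bars are standard errors) and with library sizes alone (yellow diamonds); dashed lines give the median of the 998 genes under each scaling (-0.03 and -0.30). The genes lie near the panel's median under both scalings, and 8 of 9 lie slightly below it.

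Mrc1 is also known from some endothelium, so endothelial-gated cells were compared with others, and no macrophage gene passed the test. In edgeR's quasi-likelihood test with the section as a block, 0 of the 9 genes were called between endothelial-gated cells and cells gated neither as endothelial nor as erythroid, where 21.2% of the 990 genes tested were called, and no macrophage gene had an unadjusted p under 0.05; DESeq2 called 0. The log2 fold changes ran from -0.04 for Cd163 to 0.12 for C1qa (standard error 0.07, adjusted p = 0.215), with a median of 0.07 beside 0.0020 for all genes. Of the 56 other phagocyte genes 3 were higher and 0 lower. Endothelial-gated cells were deeper, with a median of 506 transcripts against 163, and 29.8% of them held at least 3 macrophage genes against 7.70%.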

How the data were processed

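CosMx transcript counts per segmented cell were analysed for 22 sections. The authors processed the images with AtoMx and deposited whole-number counts of 998 genes per cell, without normalization. The labels describe paraffin embedding in places where the study's methods describe fresh frozen tissue. The macrophage genes, gene lists and tests were chosen with earlier results of these data known. Replicates were sections of 1 embryo per genotype, so p-values measure the spread between these sections.

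Expected co-detection used a detection probability of 1 - exp(-rate × total) per cell, with the rate set per gene and section to give the observed number of positive cells. All pairs with at least 5 expected cells formed the background. Distance between genes was taken between their midpoints in RefSeq. For tests, counts were summed per section and fitted in R 4.3.3 with edgeR 4.0.16, on limma 3.58.1, by a robust quasi-likelihood fit after filterByExpr and TMM scaling, with Benjamini-Hochberg adjustment over all genes (threshold 0.05). DESeq2 1.42.0 was an alternative. Classes of cells were compared with the section as a block, over sections with at least 3 (macrophage genes) or 10 (endothelial gate) such cells. Matched cells came from 20 bins of total count. Python 3.11.15, numpy 2.4.6, scipy 1.17.1 and pandas 2.3.3 were used, and the fits and the expectation were tested on simulated data.

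Genes were named by rule: all members, the 3 other genes with the highest ratio per member among those with at least 10 expected cells, the 10 largest rises and 5 largest falls in cells with at least 3 member genes, Csf1 and Il34, and up to 6 genes of a fixed list by size. Genes of C1q-rich cells were named after their values were seen. Alternatives were other scalings and filters, other limits on cells and genes, tables of 1 number, and leaving out each section in turn.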

Additional observations from a re-analysis of the deposited data

Results flagged for a closer look

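Tyrobp in wild-type section 17 stood at 12.05 transcripts per 10000, apart from the other 8 wild-type sections, whose highest was 9.80. The gap was large for 9 values by Dixon's test. Of 14 measures tested in this way, 1 was marked, and chance marks about 1 in 20.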

How the results depend on the processing

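No paired analysis was possible because the labels give the sections of the embryos no shared replicate numbers. Of the macrophage genes, 0 were called between the embryos in all alternatives except library sizes alone (9) and, over the fits that leave out 1 section, between 0 and 1, the latter without knockout replicate 5. Log2 fold changes turned under tables numbered 2 alone for Csf1r (0.030), C1qb (0.041) and Ptprc (-0.055), and for Ptprc also under library sizes alone (-0.24) and without wild-type replicate 1 (leaving out 1 section gave -0.0020 to 0.059). In endothelial-gated cells 0 genes were called except without cells holding at least 3 macrophage genes (2), a filter that removes cells by the genes tested, and more of the gated cells, and so lowers these genes there by construction. There Csf1r (-0.30), C1qa (-0.20), C1qb (-0.13), C1qc (-0.17), Cd68 (-0.11), Mrc1 (-0.14), Ptprc (-0.13) and Tyrobp (-0.10) turned; C1qc also turned with at least 4 gate genes (-0.078), Cd163 with library sizes alone (0.0095), and Ptprc without any 1 of 5 sections, namely knockout replicates 6, 8, 9 and 12 and wild-type replicate 9 (leaving out 1 section gave -0.022 to 0.038).

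The higher genes in cells with at least 3 macrophage genes numbered 93 in the fit reported, 50 with at least 4 genes, 60 against cells above the median total, 416 with library sizes alone, 41 without endothelial- and erythroid-gated cells, and between 74 and 103 without 1 section. Pairs of macrophage genes at or above 1.2 numbered 3 or 4 at 1 transcript under other models, subsets of cells and tables of 1 number, 5 in knockout and 2 in wild-type sections alone, 12 at 2 transcripts and 22 at 3. The observed over expected number of cells with several macrophage genes was 1.07 for at least 3 genes, 1.00 for at least 2, 1.13 for at least 4, 1.24 for at least 5, and 1.19 after thinning to 100 transcripts. Genes at least 1.5-fold higher in C1q-rich cells numbered 35, with 3 at 4 C1q transcripts, 135 at 8 and 30 without the cells with at least 10. The causes were not tested.

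Depth limits these results: most positive cells held 1 transcript, and 7 of the 9 genes lay within the range of genes of adult tissues. Positions, cell areas and negative control probes were not used here.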
